A study of Mus musculus with 10 samples.

Results

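The SR proteins are a family of splicing factors, and 10 of their genes (Srsf1, Srsf2, Srsf3, Srsf4, Srsf5, Srsf6, Srsf7, Srsf9, Srsf10 and Srsf11) were followed through the mouse myocardium, transcript by transcript. The members were chosen by name, after the values of Srsf4 in these libraries were already known. All 10 had a listed transcript, with 21 transcripts among the 22157 of the deposited table, which belong to 11777 genes. Srsf12, a related gene, had no listed transcript.

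SR proteins carry RNA recognition motifs and a tail rich in arginine and serine. They bind enhancers in exons and bring the early spliceosome to nearby splice sites, and the CLK and SRPK kinases phosphorylate the tail. Many SR genes limit their own output through poison exons, whose inclusion sends the mRNA to nonsense-mediated decay. In the mouse heart, SRSF1 governs splicing of Camk2d, Ldb3 and Tnnt2, and SRSF10 that of triadin (Trdn).

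RNA came from myocardium of C57BL/6 mice. In 5 mice (numbered 217, 227, 231, 240 and 241) natriuretic peptide receptor A was deleted in the myocardium (NPRA-/-), and 5 mice (228, 230, 242, 243 and 255) were their NPRA+/+ littermates. Each mouse gave 1 library of poly(A) RNA. The sources used here do not give age, sex, the driver of the deletion or any treatment. The deletion is myocardial, so other cells of the tissue are described as keeping the receptor.

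Values were treated as FPKM (fragments mapped to a transcript, scaled by its length and by the size of the library). No unit is named for the deposited values, which sum to 430059 to 453122 per library. The sequencing depth is unknown. The mRNA of the deleted gene, Npr1, was at 4.64 ± 0.492 FPKM in the NPRA-/- libraries and 4.68 ± 0.301 FPKM in the NPRA+/+ libraries (SD, n = 5 each). It therefore does not check the labels, and genotypes are those the labels give. All 8 cardiomyocyte markers examined were listed, with a summed level of 26067 to 30612 FPKM in the NPRA-/- and 26344 to 28752 FPKM in the NPRA+/+ libraries. Markers of macrophages (5 of 5 listed) summed to 90.3 to 110 FPKM in the NPRA-/- and 110 to 127 FPKM in the NPRA+/+ libraries. To the digits given, these macrophage ranges met at 110 FPKM, and the ranges of the other lists overlapped between the genotypes. Of single genes, 1.08% were free of such overlap. In the same order, atrial cardiomyocyte markers were at 298 to 652 against 237 to 860 FPKM. Fibroblast markers were at 309 to 367 against 329 to 430 FPKM, and endothelial markers at 188 to 249 against 223 to 243 FPKM. Adipocyte markers were at 668 to 766 against 648 to 828 FPKM, and erythroid markers at 668 to 1011 against 536 to 982 FPKM. In bulk tissue, fewer cells of a type and less RNA per cell cannot be told apart. Each transcript in the table reaches 0.5 FPKM on average in NPRA-/- or NPRA+/+ mice, and no other split of the libraries 5 against 5 has this property. All 21 Srsf transcripts averaged 1 FPKM or more in both genotypes.

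Among the 10 genes, Srsf4 was the 1 whose level separated into high and low libraries. Srsf4 encodes an SR protein with a long arginine-serine tail. It had 1 listed transcript, Srsf4-202 (chr4:131873617-131901706, plus strand, GRCm38/mm10), with a reading frame of 491 codons. Its promoter is shown because the gene carries the main contrast: 250 bases before the RefSeq start in lower case, then 30 transcribed bases in capitals (chr4:131873387-131873666, plus strand, GRCm38.p6), 20 bases from the annotated start of Srsf4-202.
Srsf4 promoter: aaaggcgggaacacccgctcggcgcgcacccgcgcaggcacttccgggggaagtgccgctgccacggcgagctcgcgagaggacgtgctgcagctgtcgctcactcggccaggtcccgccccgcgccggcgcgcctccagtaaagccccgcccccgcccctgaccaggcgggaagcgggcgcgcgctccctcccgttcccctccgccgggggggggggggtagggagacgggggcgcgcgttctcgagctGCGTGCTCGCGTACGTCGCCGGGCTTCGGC
The upstream bases were 77.2% G and C and held 37 CpG dinucleotides.

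In the NPRA-/- libraries 217, 227, 231, 240 and 241, Srsf4 was at 26.5, 28.2, 28.1, 29.4 and 24.1 FPKM. In the NPRA+/+ libraries 228, 230, 242, 243 and 255 it was at 3.94, 4.66, 25.9, 3.64 and 4.79 FPKM. Thus 6 libraries were high, among them mouse 242 of the NPRA+/+ group, and 4 NPRA+/+ libraries were low, with no library in between. The groups overlapped through mouse 242 alone, whose level was 5.41 times that of the next highest NPRA+/+ library. The lowest NPRA-/- library was 5.04 times above the highest of the other 4 NPRA+/+ libraries. The group means were 27.3 ± 2.05 and 8.59 ± 9.70 FPKM (SD, n = 5 each), a 3.17-fold ratio, and the log2 difference was 1.96 (SE 0.41).

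The limma test over all 10764 genes gave Srsf4 an adjusted p of 0.807. An exact permutation of the genotypes (two-sided) gave p = 0.0159. Srsf4 was among the genes chosen with this difference known, so these values describe it and add no independent evidence. Without mouse 242 the log2 difference was 2.43 and the limma adjusted p was 1.29e-06, but such a fit drops precisely the library whose level differs from its group. The summed markers of all 7 cell types examined in mouse 242 lay inside the range of the other 9 libraries; its erythroid markers, at 982 FPKM, were the highest of the NPRA+/+ group, where the NPRA-/- group ran from 668 to 1011 FPKM.

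**Figure D1:**
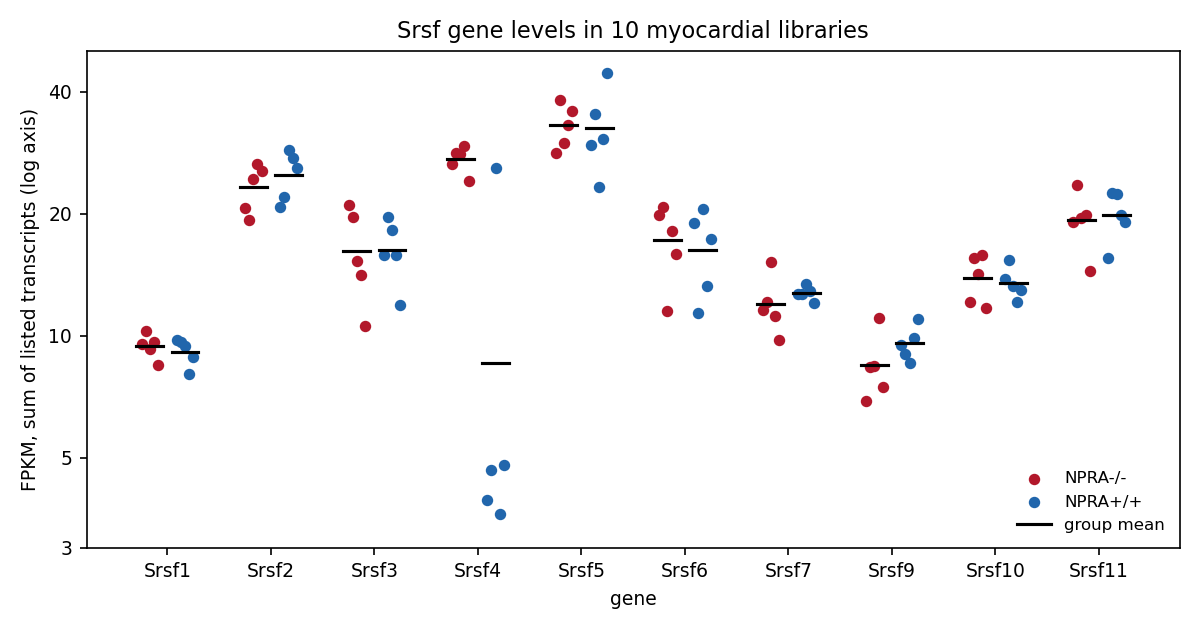
FPKM of each Srsf gene (sum of its listed transcripts, log axis) in the 10 libraries, with 1 point per mouse and a black bar at each group mean. Srsf4 is at 24.1 to 29.4 FPKM in the NPRA-/- libraries and at 3.64 to 4.79 FPKM in 4 of 5 NPRA+/+ libraries, with mouse 242 at 25.9 FPKM, while the genotypes also overlap in the other 9 genes, in Srsf9 through mouse 240.

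Over all 10 libraries the log2 values of Srsf4 had an SD of 1.25, and 0.242% of the genes and 3.86% of the transcripts tested had a larger one. The widest step between neighbouring libraries was 2.12 on the log2 scale, with 4 libraries below and 6 above. A step as wide or wider was found in 401 of 17641 transcripts (2.27%). The other 9 Srsf genes had SDs from 0.0945 (Srsf1) to 0.312 (Srsf6).

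The listed transcript of Srsf4 shares 2003 of its 2257 exonic bases (88.7%) with Srsf4-201, an annotated retained-intron transcript that was not listed. It shares 262 bases (11.6%) with Srsf4-203 and 434 bases (19.2%) with Srsf4-204, both annotated as targets of nonsense-mediated decay and not listed. Whether fragments moved between Srsf4-202 and these transcripts was not tested. The genes A930004J17Rik, on the same strand, and Gm12992, on the opposite strand, overlap Srsf4, and neither had a listed transcript.

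The 5 genes with the highest average levels across the family were Srsf5, Srsf2, Srsf11, Srsf4 and Srsf6. Over the 10 libraries Srsf5 was at 32.9 ± 5.96 FPKM (mean ± SD), Srsf2 at 24.1 ± 3.21, Srsf11 at 19.6 ± 2.88, Srsf4 at 17.9 ± 11.9 and Srsf6 at 16.8 ± 3.59 FPKM. Srsf3 followed at 16.2 ± 3.48 FPKM, then Srsf10 at 13.7 ± 1.53, Srsf7 at 12.4 ± 1.44, Srsf1 at 9.31 ± 0.661 and Srsf9 at 9.03 ± 1.37 FPKM. Between neighbours in this order, the gap exceeded both SDs only from Srsf5 to Srsf2, from Srsf2 to Srsf11 and from Srsf7 to Srsf1. FPKM is per length of transcript, but the unit is assumed here and unlisted transcripts are not counted, so this order is approximate.

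Srsf4 took different places in that order. It ranked 2 or 3 in the 6 libraries where it was high and 10, the last, in the 4 where it was low. It made up 14.1% to 16.0% of the summed FPKM of the family in the former and 2.37% to 2.88% in the latter. Srsf5 was the highest gene in 9 libraries, and Srsf2 in mouse 242.

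The sum of the 10 genes was 176, 196, 176, 189 and 164 FPKM in the NPRA-/- libraries and 151, 162, 184, 154 and 168 FPKM in the NPRA+/+ libraries. Without Srsf4 it was 149, 168, 148, 159 and 140 FPKM against 147, 158, 158, 150 and 164 FPKM. The other 9 genes together thus had nearly the same mean in both genotypes, at 153 ± 11.1 and 155 ± 6.77 FPKM (SD, n = 5 each). The NPRA-/- libraries spread more widely, from 140 to 168 FPKM against 147 to 164 FPKM.

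Neither the genes, their transcripts nor their isoform shares passed the adjusted test for genotype. With limma 0 of the 10 genes had an adjusted p under 0.05, where 0.00929% of all 10764 genes did, and 1 (Srsf4) had an unadjusted p under 0.05, where 5.52% of all genes did. Of the 21 transcripts 0 passed (0.0283% of 17641 did) and 1 had an unadjusted p under 0.05 (5.50% did). Of 16 isoform shares, 0 passed (0.0512% of 15612 did) and 0 had an unadjusted p under 0.05 (5.51% did). In 0 of 10 genes were the genotypes free of overlap, against 1.08% of all genes. Of the 10 genes 5 were higher and 5 lower in the NPRA-/- libraries, with a median log2 difference of -0.00169 (0.0247 with median-of-ratios scaling and 0.0327 with quantile normalization). Of all genes 4240 were higher and 6524 lower, with a median of -0.0293 (-0.00413 with median-of-ratios scaling and -0.00343 with quantile normalization).

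**Figure D2:**
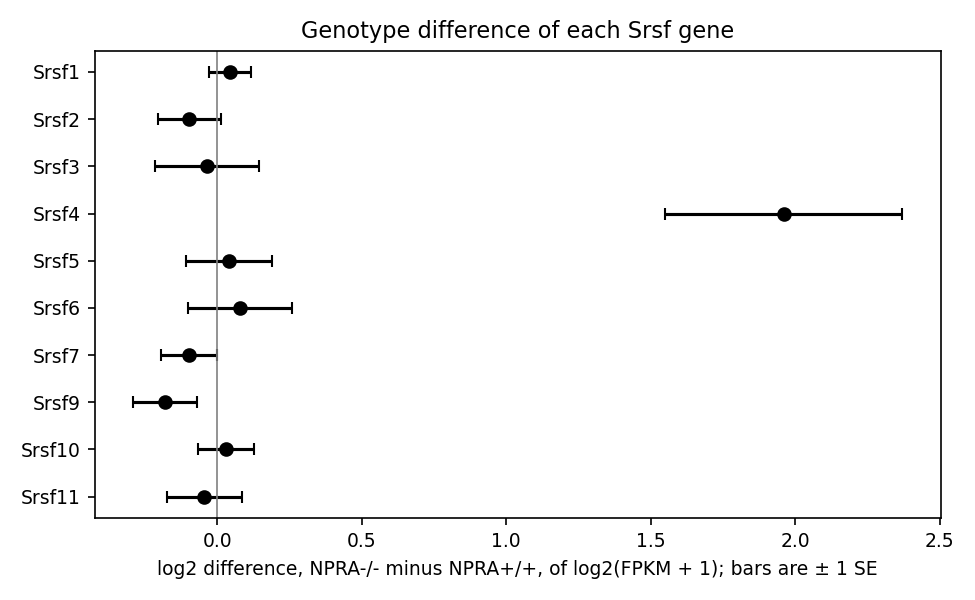
Log2 difference of each Srsf gene between the genotypes (NPRA-/- minus NPRA+/+, on log2(FPKM + 1), limma), with bars of 1 SE to each side. Srsf4 lies at 1.96, and the other 9 genes lie between -0.18 (Srsf9) and 0.0787 (Srsf6).

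Srsf1, the best studied SR protein and one that shuttles between nucleus and cytoplasm, was the steadiest member. It was at 9.56, 10.3, 9.30, 9.68 and 8.48 FPKM in the NPRA-/- libraries and 9.75, 9.64, 9.44, 8.06 and 8.87 FPKM in the NPRA+/+ libraries. Its highest library was 1.28 times its lowest, and the groups overlapped throughout (log2 difference 0.0438, SE 0.0727).

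Its main transcript, Srsf1-205 (248 codons), gave 43.4% to 81.5% of the gene. Both ends of that range were NPRA-/- libraries, 43.4% in mouse 231 and 81.5% in mouse 227. Srsf1-202 (253 codons) mirrored it, with 3.08 FPKM (33.1%) in mouse 231 and a listed value of 0 in mouse 227, against 1.09 to 1.83 FPKM elsewhere. All 1209 exonic bases of Srsf1-202 lie within Srsf1-205 as well, so its exonic bases alone do not tell it from Srsf1-205.

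Srsf2, a mainly nuclear SR protein, was at 20.7, 19.3, 24.4, 26.5 and 25.5 FPKM in the NPRA-/- and 20.8, 22.0, 28.7, 27.5 and 25.9 FPKM in the NPRA+/+ libraries. The ranges overlapped, and the log2 difference was -0.0966 (SE 0.11). On the opposite strand Srsf2 overlaps Mettl23, at 11.4 to 17.3 FPKM, and Mfsd11, at 2.79 to 4.97 FPKM; the library kit keeps the strand, but the sources used here do not say whether the quantification used it.

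Its minor transcript Srsf2-206 was at 0.475, 0.542, 4.33, 0.640 and 0.557 FPKM in the NPRA-/- libraries. In the NPRA+/+ libraries it was at 0.841, 0.734, 4.45, 4.78 and 0.721 FPKM. Mice 231, 242 and 243 stood high, with 17.8%, 15.5% and 17.4% of the gene, and the other 7 libraries were at 2.18% to 4.04%. Srsf2-206 has the same coding bases as the main transcript Srsf2-201 (221 codons) and differs outside them. All of its 1326 exonic bases are also in Srsf2-202, an annotated decay target that was not listed.

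Srsf3, the smallest SR protein, and Srsf7, which resembles it and has a zinc knuckle, both take part in mRNA export. Srsf3 was at 21.1, 19.7, 15.3, 14.1 and 10.6 FPKM in the NPRA-/- and 15.8, 19.7, 18.3, 15.8 and 11.9 FPKM in the NPRA+/+ libraries. Its highest library was 2.00 times its lowest, with mouse 241 lowest in 1 genotype and mouse 255 in the other. Of 4 other genes with near-identical stretches, 3 are annotated pseudogenes and 1, Gm12355, is in the table, so the level of Srsf3 is uncertain (at least 95% identity over at least 200 bases).

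Srsf7 was at 11.6, 12.1, 15.2, 11.2 and 9.76 FPKM in the NPRA-/- and 12.7, 12.7, 13.4, 12.9 and 12.04 FPKM in the NPRA+/+ libraries. The NPRA+/+ values sat within a narrow band that the NPRA-/- values enclosed. The log2 differences were -0.0339 (SE 0.18) for Srsf3 and -0.0962 (SE 0.0969) for Srsf7.

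Srsf6 belongs with Srsf4 and Srsf5 to the SR proteins that carry a pair of RNA recognition motifs. It was at 19.9, 20.8, 11.5, 18.2 and 15.9 FPKM in the NPRA-/- and 19.0, 11.4, 20.6, 13.3 and 17.3 FPKM in the NPRA+/+ libraries. Low values (mice 231, 230 and 243) and high values occurred in both genotypes.

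Srsf9, an SR protein with a short tail, was at 6.90, 8.40, 8.43, 11.1 and 7.49 FPKM in the NPRA-/- and 9.52, 9.03, 8.57, 9.86 and 11.04 FPKM in the NPRA+/+ libraries. In 4 NPRA-/- mice the level lay below every NPRA+/+ library, and in mouse 240 it lay above them all. Its log2 difference of -0.18 (SE 0.11) was the lowest of the 10 genes, with a limma adjusted p of 0.914.

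Isoform shares of single mice stood apart in both genotypes. The widest such step was in Srsf11, which encodes an SR-like protein that contacts the splicing factor U2AF. Its listed transcripts begin at sites 4873 bases apart: Srsf11-202 starts at 158031766 on chromosome 3 (minus strand, GRCm38/mm10), and Srsf11-204 starts upstream at 158036639. Srsf11-204 has 105 coding bases that Srsf11-202 lacks, which gives 511 codons against 476. Because the pair starts at different sites, the promoter of each is shown, with 250 upstream bases in lower case and 30 transcribed bases in capitals (RefSeq, GRCm38.p6). The downstream window is chr3:158031719-158031998 (minus strand), 18 bases from the start of Srsf11-202, and the upstream window is chr3:158036577-158036856 (minus strand), 33 bases from that of Srsf11-204.
Srsf11 downstream promoter: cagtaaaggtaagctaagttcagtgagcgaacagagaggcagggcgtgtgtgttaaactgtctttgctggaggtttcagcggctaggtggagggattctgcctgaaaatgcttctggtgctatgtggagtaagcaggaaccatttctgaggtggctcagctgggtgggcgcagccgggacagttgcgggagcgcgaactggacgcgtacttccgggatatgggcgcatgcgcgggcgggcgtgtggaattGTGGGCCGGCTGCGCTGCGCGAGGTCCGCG
Srsf11 upstream promoter: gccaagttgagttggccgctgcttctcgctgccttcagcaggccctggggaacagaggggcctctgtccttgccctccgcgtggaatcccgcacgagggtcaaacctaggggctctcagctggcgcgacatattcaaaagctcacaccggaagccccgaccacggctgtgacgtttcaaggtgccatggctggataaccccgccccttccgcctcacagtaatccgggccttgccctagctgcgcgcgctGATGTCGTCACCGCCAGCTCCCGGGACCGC
The upstream parts held 16 CpG dinucleotides at 57.2% G and C in the downstream promoter and 18 at 63.6% in the upstream one.

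Srsf11-202 was at 14.2, 16.1, 11.8, 14.0 and 1.29 FPKM in the NPRA-/- libraries and 1.58, 14.97, 14.7, 13.4 and 13.3 FPKM in the NPRA+/+ libraries. Srsf11-204 was at 0.582, 0.246, 0.385, 0.188 and 6.73 FPKM in the NPRA-/- and 6.37, 1.43, 0.363, 0.272 and 0.326 FPKM in the NPRA+/+ libraries. Mouse 241 of the NPRA-/- group and mouse 228 of the NPRA+/+ group therefore had little of the first transcript and much of the other, and the remaining 8 libraries the reverse.

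The share of Srsf11-202 was 8.89% and 10.1% in those mice against 60.5% to 74.4% elsewhere, and that of Srsf11-204 was 46.4% and 40.8% against 0.945% to 6.38%. The gene sum was lowest in the same libraries, at 14.5 and 15.6 FPKM, where the other 8 were at 19.1 to 23.6 FPKM. Srsf11-201, which starts 88 bases from Srsf11-204 and codes for 500 codons, changed less in level, at 4.32 to 7.66 FPKM. A step as wide as that of Srsf11-202, 2.31 on the log2 scale, occurred in 328 of 17641 transcripts (1.86%). The transcripts share 2536 bases, 95.6% of Srsf11-202.

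**Figure D3:**
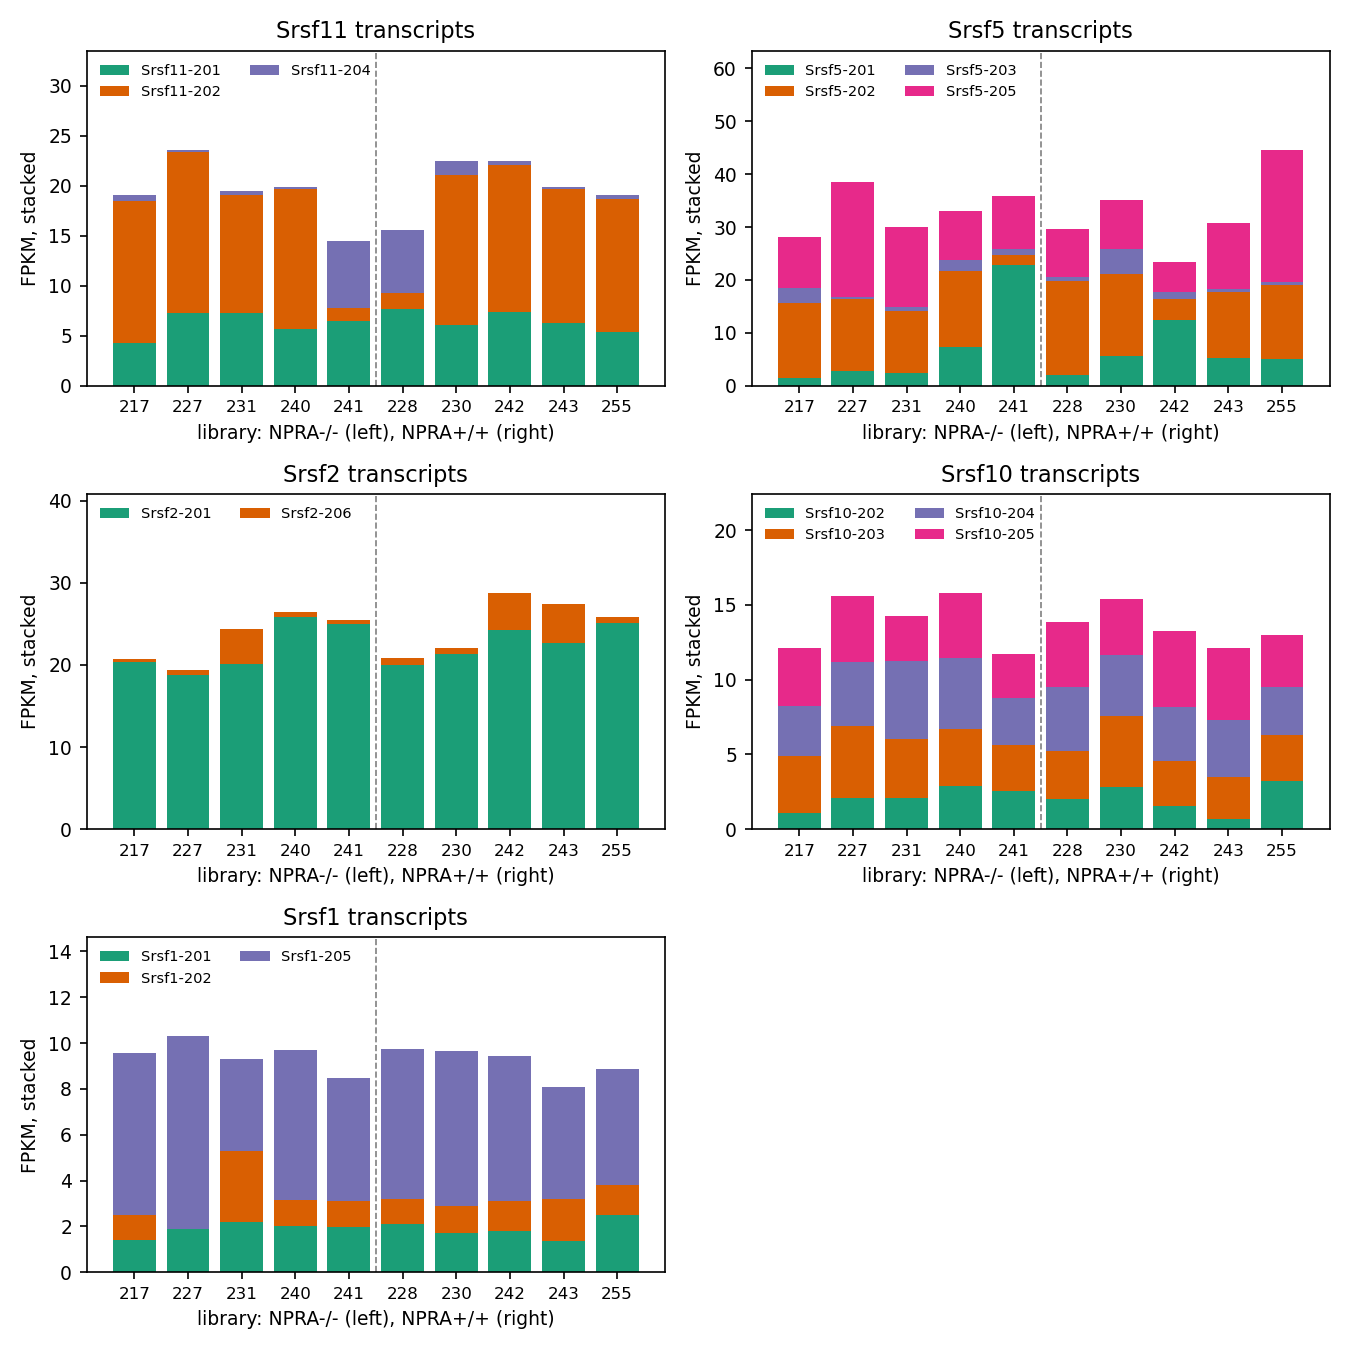
Stacked FPKM of the listed transcripts of the 5 Srsf genes with several of them, 1 bar per library, NPRA-/- left and NPRA+/+ right of the dashed line. Srsf11-202 shrinks to 1.29 FPKM in mouse 241 and 1.58 FPKM in mouse 228, and Srsf5-202 to 1.93 FPKM in mouse 241 and 3.99 FPKM in mouse 242.

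Srsf5, an SR protein whose binding is known to steer splicing in response to insulin, had 4 listed transcripts. Srsf5-202 holds 3 coding bases that the other 3 lack, 270 codons against 269. The coding sequence around these bases is shown to make the difference visible, with the added bases (chr12:80949717-80949719, plus strand, GRCm38/mm10) in capitals.
Srsf5-202: caaaaggcacagCAGgtcaagaagcag
Srsf5-201, Srsf5-203 and Srsf5-205: caaaaggcacaggtcaagaagcag

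Srsf5-202 was at 14.0, 13.6, 11.7, 14.3 and 1.93 FPKM in the NPRA-/- and 17.7, 15.5, 3.99, 12.4 and 13.9 FPKM in the NPRA+/+ libraries. Srsf5-201 was at 1.55, 2.88, 2.51, 7.41 and 22.8 FPKM in the NPRA-/- and 2.09, 5.64, 12.5, 5.31 and 5.15 FPKM in the NPRA+/+ libraries. Mouse 241 and mouse 242, from opposite groups, were the lowest in Srsf5-202 and the highest in Srsf5-201.

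The share of the form with the added bases was 5.37% in mouse 241 and 17.1% in mouse 242, against 31.2% to 59.9% in the other 8. By genotype it was 34.6% ± 17.2 and 38.6% ± 15.8 (SD, n = 5 each; limma adjusted p = 0.967). Srsf5-201 and Srsf5-202 share 1495 bases, 99.8% of Srsf5-202, so they differ in few exonic bases.

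Srsf5-205 varied separately, with 9.61, 21.6, 15.1, 9.24 and 10.01 FPKM in the NPRA-/- and 9.05, 9.27, 5.63, 12.3 and 25.0 FPKM in the NPRA+/+ libraries. Mice 227 and 255 were highest, and these libraries also had the highest gene sums, 38.3 and 44.6 FPKM. The whole gene was at 28.2, 38.3, 29.9, 33.1 and 36.0 FPKM in the NPRA-/- and 29.6, 35.2, 23.3, 30.7 and 44.6 FPKM in the NPRA+/+ libraries, with overlap and a log2 difference of 0.0406 (SE 0.15).

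Srsf10, which turns into a splicing repressor when it is dephosphorylated, combined the same kind of 3-base difference with alternative ends. Srsf10-204 and Srsf10-205 carry 3 added coding bases (chr4:135863523-135863525, plus strand, GRCm38/mm10), again in capitals.
Srsf10-204 and Srsf10-205: cagtcctagaaaCAGtagaccgactgg
Srsf10-202 and Srsf10-203: cagtcctagaaatagaccgactgg
Srsf10-202 and Srsf10-204 have long reading frames (261 and 262 codons), and Srsf10-203 and Srsf10-205 short ones (182 and 183 codons).

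By estimated level, Srsf10, like Srsf5, had forms with and without the added bases in every library. Srsf10-202 shares all of its 3055 exonic bases with Srsf10-204, and Srsf10-203 all of its 2225 with Srsf10-205. Fragments that span the added bases were not examined, so these shares are uncertain. The form with the added bases made up 59.5%, 55.9%, 57.4%, 57.7% and 51.8% of the gene in the NPRA-/- and 62.3%, 50.9%, 65.6%, 71.2% and 51.6% in the NPRA+/+ libraries. The long reading frames made up 36.6%, 40.9%, 51.4%, 48.4% and 48.5% in the NPRA-/- and 45.6%, 44.5%, 38.8%, 37.1% and 49.7% in the NPRA+/+ libraries. Both shares overlapped between the genotypes, and no library stood apart the way mice 241 and 242 did in Srsf5.

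The gene sum of Srsf10 was 12.1, 15.6, 14.2, 15.8 and 11.7 FPKM in the NPRA-/- and 13.8, 15.4, 13.3, 12.1 and 13.01 FPKM in the NPRA+/+ libraries. It varied little in either genotype. Srsf5 has 1 and Srsf10 has 2 annotated pseudogenes at least 95% identical over at least 200 bases, none of them in the table.

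Every one of the 21 listed transcripts is annotated as protein-coding, as are 22051 of all 22157 listed transcripts. The lack of other types is therefore not particular to this family. GENCODE vM21 annotates 85 transcripts of these genes, of which 29 are protein-coding, 15 decay targets, 26 retained introns and 15 processed transcripts. A decay target is annotated for 9 of the 10 genes, all but Srsf10, and none was listed. Poison-exon forms of the family were thus not analysed here. Srsf3, Srsf4, Srsf6, Srsf7 and Srsf9 had 1 listed transcript each, so their isoform shares could not be followed.

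The promoter windows all held more CpG dinucleotides than the median window of all genes. RefSeq gave 13 windows for the 10 genes, with 16 to 37 CpG dinucleotides in the 250 upstream bases and a median of 33, against a median of 6 over 32851 windows of all genes. The motif GGGCGG, searched on both strands, was in 12 of 13 windows against 32.7% of all, CCAAT in 3 of 13 against 33.8%, and TATAAA in 2 of 13 against 12.4%. Several windows of 1 gene overlap, so they are not independent, and a match to these letters is a description only. No comparison with the promoters of expressed genes alone was made, so the composition cannot be called particular to this family.

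Profiles most like that of Srsf4 were found by scaling each gene from 0 at its lowest to 1 at its highest library and taking the mean absolute distance over the 10 libraries, among 6847 genes. The nearest were Aldh7a1 (distance 0.142), a lysine-degrading aldehyde dehydrogenase, Emp1 (0.145), an epithelial membrane protein, and Pttg1 (0.150), the securin that restrains sister chromatid separation. Lrrc57 (0.166), the zinc finger gene Zkscan3 (0.172) and the lipid kinase gene Pip5k1c (0.176) came next. Every other member had a nearer best match, at distances from 0.0484 (Srsf3) to 0.125 (Srsf6). The distance depends on the shape of a profile, and the scaled values of Srsf4 lie near 0 or 1. Best matches are therefore not strictly comparable between members. The scaling also hides the size of a change, as Lrrc57 ran only from 8.48 to 13.01 FPKM.

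Emp1 was at 13.4, 1.17, 14.7, 15.3 and 12.9 FPKM in the NPRA-/- and 1.16, 2.24, 15.8, 1.71 and 1.13 FPKM in the NPRA+/+ libraries. It was high in mouse 242, as Srsf4 was, but low in mouse 227, where Srsf4 was high. Pip5k1c was at 12.9 FPKM in mouse 242, and also at 13.4 FPKM in mouse 243, where Srsf4 was low. The nearest mirror images were Kdelr2 (0.148), Cyth3 (0.153), Klf13 (0.168) and Mmp2 (0.175). Kdelr2 ran only from 15.98 to 19.4 FPKM over all libraries. Mmp2 was at 15.3 FPKM in mouse 242 and 16.5 to 23.3 FPKM in the other NPRA+/+ libraries.

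**Figure D4:**
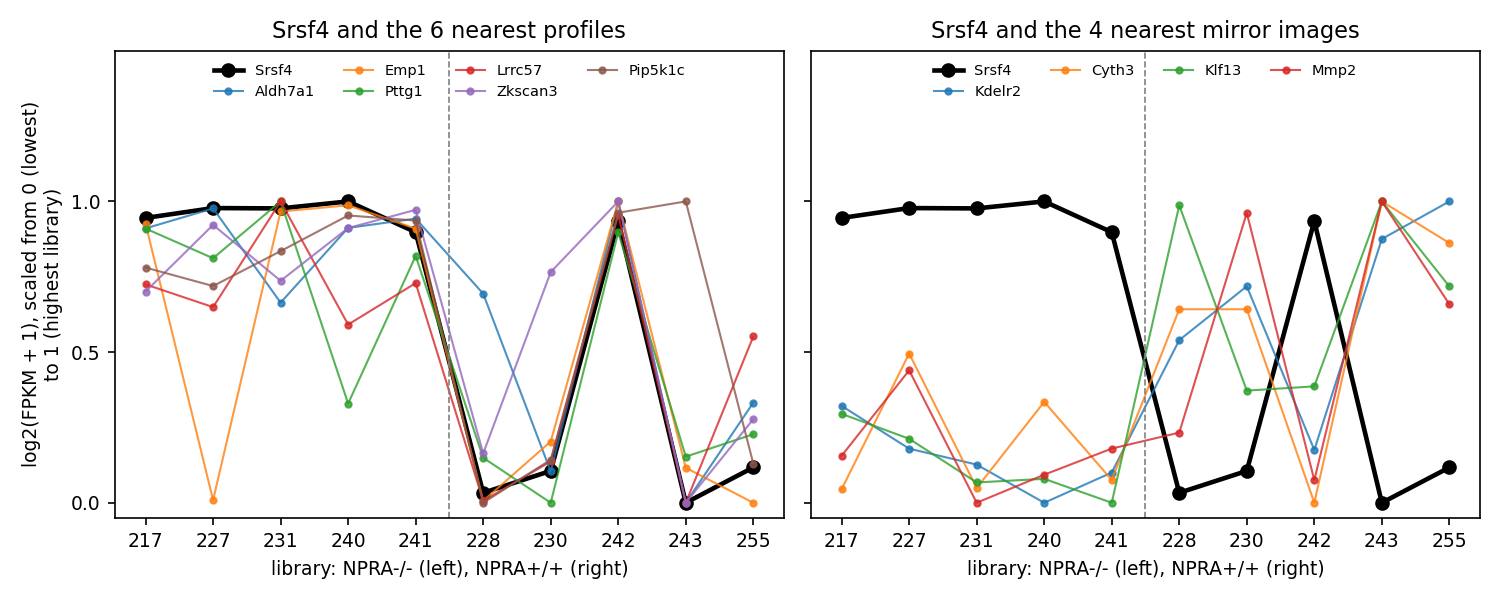
Log2(FPKM + 1) of Srsf4 (black) over the 10 libraries, scaled from 0 at the lowest to 1 at the highest library, with the 6 genes of most similar profile in 1 panel and the 4 nearest mirror images in the other. The dashed line parts NPRA-/- (left) from NPRA+/+ (right), and Srsf4 returns to its high level in mouse 242.

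The kinases and phosphatases that act on SR proteins were compared from a list of 12, of which 3 were higher and 9 lower in the NPRA-/- libraries (median log2 difference -0.0462). None passed with limma (0.00929% of all genes did) and 1, Clk3, had an unadjusted p under 0.05, a count near the 5.52% of all genes. Clk3 was at 10.1, 10.6, 10.3, 6.18 and 8.65 FPKM in the NPRA-/- and 3.95, 2.82, 3.42, 6.52 and 4.22 FPKM in the NPRA+/+ libraries (log2 difference 0.99, SE 0.19, limma adjusted p = 0.731). Unlike Srsf4, Clk3 was low in mouse 242; the overlap between genotypes came from mouse 243 against mouse 240. Prpf4b, a kinase of the tri-snRNP, was at 11.7 ± 1.32 and 9.75 ± 3.09 FPKM (SD, n = 5 each).

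Among 28 tested SR-related proteins and cofactors 9 were higher and 19 lower (median -0.0232), with 0 called by limma and 4 at an unadjusted p under 0.05, where 5.52% of all genes were. Srrm1, which bridges SR proteins to the spliceosome, was at 37.3, 32.5, 30.8, 30.6 and 30.1 FPKM in the NPRA-/- and 28.7, 24.0, 27.3, 26.0 and 27.9 FPKM in the NPRA+/+ libraries. Every NPRA-/- library lay above every NPRA+/+ library, mouse 242 included (log2 difference 0.26, SE 0.0722, limma adjusted p = 0.833). Of all 10764 genes, 116 (1.08%) had genotypes free of overlap, and Srrm1 was named for its small p within this list. Son, a large nuclear speckle cofactor, was at 16.8, 39.7, 19.3, 17.9 and 16.9 FPKM in the NPRA-/- and 39.7, 40.9, 36.4, 32.7 and 37.8 FPKM in the NPRA+/+ libraries, so mouse 227 stood with the other genotype (log2 difference -0.81, SE 0.20, limma adjusted p = 0.833). The libraries that went against their group thus differed between genes: mouse 242 for Srsf4 and mouse 227 for Son.

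The early spliceosome list of 15 genes had 5 higher and 10 lower (median -0.0420), with 0 called and 1 at an unadjusted p under 0.05. Both counts are near those of all genes, of which 6524 of 10764 were lower and 5.52% had an unadjusted p under 0.05. The gene at an unadjusted p under 0.05 was U2af1l4, a relative of the U2AF small subunit, at 15.2 ± 1.87 and 18.2 ± 2.10 FPKM (SD, n = 5 each), and Snrpa, of the U1 particle, was at 19.3 ± 2.57 and 22.5 ± 2.64 FPKM. The 27 hnRNP genes, which often act against SR proteins, had 16 higher and 11 lower (median 0.00957), with 0 called and 0 at an unadjusted p under 0.05. Pcbp1 was at 55.7 ± 2.29 and 59.4 ± 3.06 FPKM and Syncrip at 25.0 ± 2.29 and 23.1 ± 1.61 FPKM. Of 15 genes of nonsense-mediated decay 7 were higher and 8 lower (median -0.0223), again with 0 called and 0 at an unadjusted p under 0.05; Smg9 was at 2.25 ± 0.693 and 2.72 ± 0.317 FPKM and Upf2 at 10.7 ± 0.307 and 10.1 ± 0.614 FPKM.

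Of 12 tested muscle splicing regulators 7 were higher and 5 lower (median 0.0604), with 0 called by limma and 0 at an unadjusted p under 0.05. Of all genes 0.00929% were called and 5.52% had an unadjusted p under 0.05, so counts of 0 in a list this short say little about it. Rbm20, which governs titin splicing, was at 42.0, 38.7, 38.6, 36.5 and 43.8 FPKM in the NPRA-/- and 38.3, 32.3, 16.6, 35.6 and 37.2 FPKM in the NPRA+/+ libraries. Mouse 242 was the lowest library. How often a single library lies this far from the others over all genes was not computed. Rbm24 was at 50.7 ± 1.77 and 45.6 ± 4.76 FPKM.

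Cardiac genes whose splicing SR proteins and related factors are known to govern in mouse (Camk2d, Ldb3, Tnnt2, Ryr2, Trdn, Ttn and Bin1) showed no called difference at any level. Of the 7 genes 4 were higher and 3 lower (median 0.00929), with 0 at an unadjusted p under 0.05 (limma), where 5.52% of all genes were. Tnnt2, cardiac troponin T, was at 8023 ± 566 and 7455 ± 380 FPKM and Bin1, a T-tubule protein, at 4.77 ± 1.29 and 5.27 ± 0.676 FPKM (SD, n = 5 each). Among their 47 tested transcripts 4, of which 3 belong to Tnnt2, had an unadjusted p under 0.05 with limma (5.50% of all transcripts did). None of these 47 passed (0.0283% of all did). Among their 51 isoform shares 0 passed with limma (0.0512% of all shares did) and 0 had an unadjusted p under 0.05 (5.51% did).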

How the data were processed

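Poly(A) RNA was sequenced from 10 myocardial libraries, 5 per genotype. Per the submitters' processing notes the authors used cutadapt, HISAT2 and StringTie with mm10; the sources used here give no versions, settings or annotation. The deposited values, 1 for each transcript in each library, were treated as FPKM. No unit is named in the table, and TPM on another scale is possible, so rescaling to equal sums was an alternative. Depth is unknown, so precision rests on the spread between libraries.

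Transcript identifiers were matched to GENCODE vM21 (22107 of 22157; 19 of the 21 Srsf transcripts with the same version). FPKM were summed per gene symbol. Genes, transcripts and isoform shares (arcsine square root) were fitted with limma 3.58.1 (R 4.3.3) on log2(FPKM + 1), which understates the change of low genes, where a group mean reached 1 FPKM, with Benjamini-Hochberg adjustment over all features at 0.05. The fits were tested on simulated data. Single values were compared by two-sided exact permutation, whose smallest p is 0.00794. Members, gene lists and tests were chosen with earlier results of these data known. Named genes were all members, the called genes or the 2 smallest p-values of each list, and the 6 nearest and 4 mirror profiles of Srsf4. Other named features of single libraries were picked after their values were seen. Promoters came from RefSeq (GRCm38.p6); transcript sequence came from GENCODE. Other settings tried were 0.1 and 0.5 as pseudocounts, a floor of 0 or 5 FPKM, 3 other scalings, robust or untrended fits, the most abundant transcript, leaving out each library and, chosen after seeing the data, a length-weighted sum. Figures and descriptions were made with matplotlib 3.10.9, scipy 1.17.1, pandas 2.3.3 and numpy 2.4.6 under Python 3.11.15. Circular RNA was not analysed here.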

Additional observations from a re-analysis of the deposited data

Results flagged for a closer look

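Within each genotype, the level of every Srsf gene and transcript and every isoform share was examined for a library far from the other 4, over 84 groups. For normally distributed values chance flags about 1 in 20 groups, and 18 were flagged. The rate over all genes, transcripts and shares of the table was not computed, so the count cannot show an excess in this family. Shares of 1 gene depend on each other, and a gene with 1 transcript was counted once. Srsf4 was at 25.9 FPKM in mouse 242, against 3.64 to 4.79 FPKM in the other NPRA+/+ libraries.

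Srsf11 accounted for 8 of the flags. Srsf11-202 was at 1.58 FPKM in mouse 228, with a share of 10.1%, and at a share of 8.89% in mouse 241. Srsf11-204 was at 6.73 FPKM (46.4%) in mouse 241 and 6.37 FPKM (40.8%) in mouse 228. The share of Srsf11-201 was 49.1% in mouse 228, against 27.0% to 32.9% in the rest of its group.

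In Srsf5, mouse 241 stood apart with 22.8 FPKM of Srsf5-201 and 1.93 FPKM of Srsf5-202. Mouse 242 stood apart in the share of Srsf5-201, 53.6%, and mouse 230 in Srsf5-203, at 4.74 FPKM against 0.564 to 1.19 FPKM. In mouse 231, Srsf2-206 was at 4.33 FPKM and 17.8% of its gene, which left 82.2% for Srsf2-201. Srsf10-203 was at 4.77 FPKM and 31.0% of its gene in mouse 230, against 2.81 to 3.21 FPKM and 22.8% to 23.5% in the other NPRA+/+ libraries.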

How the results depend on the processing

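No paired analysis was possible because the labels do not give the litter of each mouse. All mice were treated as unrelated in the fits, although the NPRA+/+ mice were littermates of the NPRA-/- mice. The count of called Srsf genes was 0 and ran from 0 to 1 when 1 library was left out, as did that of transcripts; the 1 was Srsf4 without mouse 242. The log2 difference of Srsf4 ran from 1.80 to 2.43 over these fits. No Srsf isoform share was called under any alternative run. The median log2 difference of the Srsf genes was 0.0247 with median-of-ratios scaling and 0.0327 with quantile normalization, and ran from -0.0241 to 0.0639 without 1 library, being above 0 without mouse 241, 230 or 242. For single genes 13 of the fits reversed the sign of an uncalled difference: Srsf10 was -0.17 by its most abundant transcript and ran from -0.0150 to 0.0859 without 1 library, Srsf3 from -0.14 to 0.0990, Srsf5 from -0.0691 to 0.16, Srsf6 from -0.0330 to 0.21 and Srsf11 from -0.12 to 0.0491. The cause was not tested. Of all genes, 1 was called, 0 with median-of-ratios scaling, quantile normalization, no trend or the length-weighted sum, and 2 by the most abundant transcript; leaving out mouse 231, 240, 241, 228 or 230 gave 0 and leaving out mouse 217 gave 2, the range being 0 to 2. Of all transcripts 5 were called, 3 at a mean of at least 5 FPKM, and 2 to 10 without 1 library (2 without 243, 3 without 228, 9 without 227 or 241, 10 without 230). Of all isoform shares 8 were called, 5 at a gene mean of at least 5 FPKM, and 12 to 21 without 1 library (12 without 242 and more without any other). Values without counts or depth cannot show how firmly a share near 0 is known.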
